A study of Triticum aestivum with 12 samples.

Results

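PR5 (LOC543292) and wci (LOC542996) are defence genes of wheat, and each was measured by 1 annotated probe set, Ta.24501.1.S1_at for PR5 and Ta.10170.1.S1_at for wci. These 2 genes were chosen by name from 771 annotated genes, of which 102 have a name other than a LOC number. Their 2 probe sets are among 61179 tested. Roots came from seedlings raised in sand and 18 days old, and their transcripts were measured on 12 Affymetrix wheat arrays. The arrays fall into 6 groups of 2, made of 3 genotypes, Pavon76, Pavon-TL and Null Control. Each genotype was watered daily, labelled well water, or every second day, labelled water stress. All values are the authors' RMA values on a log2 scale, on which a difference of 1 is a doubling of the signal.

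Pavon76 is a cultivar of spring wheat. Background knowledge of the line, not a label, says that Pavon-TL derives from Pavon76 by a translocation and carries a chromosome segment of a wild relative. The labels do not describe Null Control, and it is taken here as a control genotype beside Pavon76. Whether replicate numbers 1 and 2 of a group stand for separate plants or pools is not given in the labels, so p-values measure only the spread between these arrays, which may be technical.

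PR5 proteins are thaumatin-like proteins of pathogenesis-related family 5. They are secreted or vacuolar, several of them act against fungi, and related osmotins accumulate in plants under osmotic stress. The name wci stands for wheat chemically induced. Transcripts of this kind were found in wheat after treatment with benzothiadiazole, a compound that mimics salicylic acid and induces resistance to pathogens. The annotation gives wci no further name, so which of the chemically induced wheat transcripts it is was not settled here.

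PR5 had a low signal. In Pavon76 it read 4.96 and 5.20 on the well-watered arrays numbered 1 and 2, and 4.76 and 4.76 on the stressed ones. In Pavon-TL it read 4.90 and 5.62 under well water and 4.78 and 5.03 under water stress. In Null Control it read 5.07 and 5.24 under well water and 4.52 and 5.23 under water stress. The ranges of the water conditions overlapped, from 4.90 to 5.62 over the 6 well-watered arrays and from 4.52 to 5.23 over the 6 stressed ones. The highest value was the second well-watered Pavon-TL array and the lowest the first stressed Null Control array. All 12 values lay below the median of all values (5.91), between the percentiles 28.0 and 45.5 of their arrays. A low value does not state that the transcript was absent, since detection was not scored here, and differences of low signals are understated on this scale.

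The wci signal was above the median of all values on every array, between the percentiles 60.7 and 66.8. In Pavon76 it read 6.74 and 6.68 under well water and 6.87 and 7.20 under water stress. In Pavon-TL it read 6.80 and 6.68 under well water and 6.83 and 6.91 under water stress. In Null Control it read 6.77 and 6.72 under well water and 6.99 and 7.06 under water stress. Here the water conditions did not overlap, since the highest well-watered array was at 6.80 and the lowest stressed one at 6.83, both of them Pavon-TL arrays numbered 1. Stressed arrays all above well-watered arrays were found in 0.203% of tested probe sets. The gap between the conditions was narrow, and the second stressed Pavon76 array stood highest at 7.20.

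**Figure D1:**
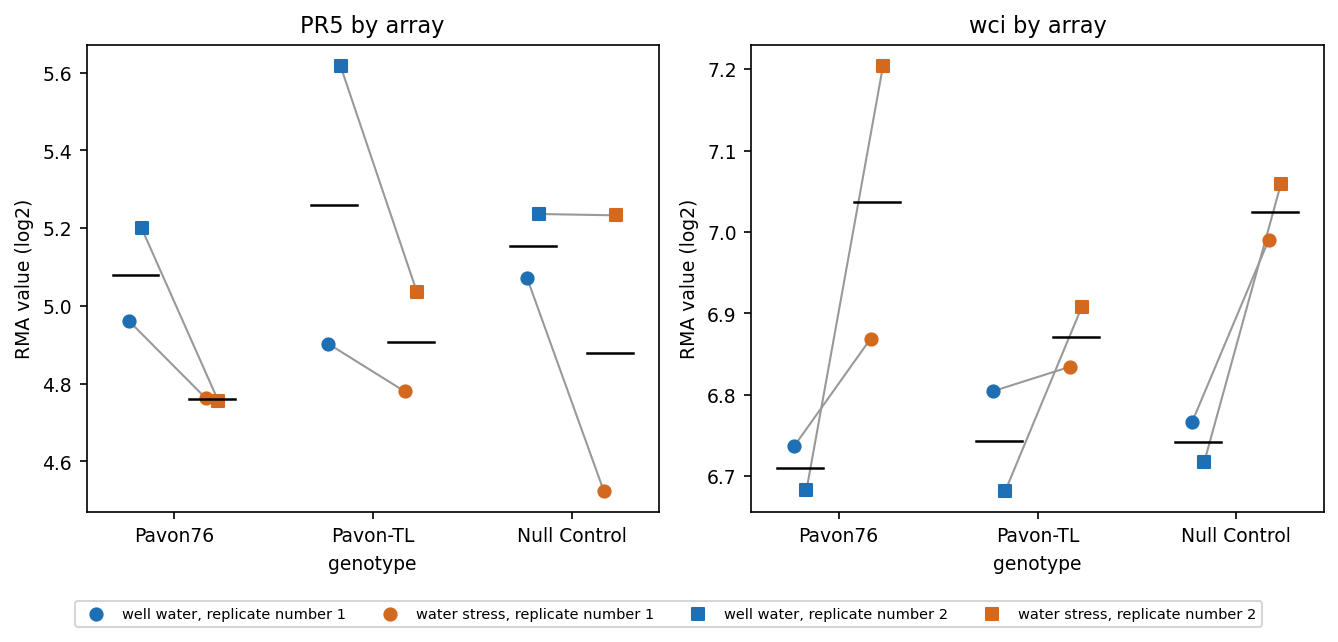
RMA values (log2) of PR5 (left) and wci (right) on each of the 12 arrays, by genotype. Circles are replicate number 1 and squares number 2, blue is well water and orange water stress, grey lines join the arrays of one genotype and number, and black bars are means of 2 arrays. Every line for PR5 goes down, that of Null Control number 2 by only 0.0035, and every line for wci goes up.

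Ordered by group mean, the well-watered groups were highest for PR5, with Pavon-TL at 5.26 ± 0.51 (SD, n = 2), Null Control at 5.15 ± 0.12 and Pavon76 at 5.08 ± 0.17. The stressed groups followed, with Pavon-TL at 4.91 ± 0.18 (SD, n = 2), Null Control at 4.88 ± 0.50 and Pavon76 at 4.76 ± 0.0040. The arrays of neighbours in this order overlapped in 5 of 5 steps. For wci the order was turned round by water. Stressed Pavon76 stood at 7.04 ± 0.24 (SD, n = 2), stressed Null Control at 7.02 ± 0.05 and stressed Pavon-TL at 6.87 ± 0.05. Well-watered Pavon-TL and Null Control both averaged 6.74, with SDs of 0.09 and 0.03 (n = 2), and well-watered Pavon76 6.71 ± 0.04. Neighbours overlapped in 3 of 5 steps, and the arrays were apart between stressed Null Control and stressed Pavon-TL, and between stressed and well-watered Pavon-TL.

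The first comparison asks how both defence genes differ between watering every second day and daily watering. PR5 was lower and wci higher under water stress in all 6 pairs, a pair being the stressed and well-watered array of one genotype and one replicate number. Over all tested probe sets, 2.52% were lower in all pairs and 2.83% higher. The mean of PR5 was 5.16 ± 0.26 (SD, n = 6) in well-watered and 4.85 ± 0.25 (SD, n = 6) in stressed arrays. That of wci was 6.73 ± 0.05 (SD, n = 6) and 6.98 ± 0.14 (SD, n = 6). On a linear scale these are ratios of stress over well water of 0.803 for PR5 (limma 95% interval 0.625 to 1.03) and 1.19 for wci (1.06 to 1.33). Neither difference passed the threshold of limma, an adjusted p below 0.05 over all probe sets.

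For PR5 the pairs differed by -0.20 (number 1) and -0.44 (number 2) in Pavon76. The Pavon-TL pairs differed by -0.12 and -0.58, and the Null Control pairs by -0.55 and -0.0035. The difference was thus near 0 in the second Null Control pair and largest in the second Pavon-TL pair. For wci the Pavon76 pairs differed by 0.13 and 0.52, the Pavon-TL pairs by 0.03 and 0.23, and the Null Control pairs by 0.22 and 0.34. The smallest wci difference was that of the first Pavon-TL pair. The mean of the 6 differences was -0.32 ± 0.24 (SD) for PR5 and 0.25 ± 0.17 (SD) for wci. A two-sided exact sign-flip permutation test gave p = 0.0312 for each gene, with 6 pairs the smallest p it can give. It was run on these 2 genes, which were chosen with earlier results of these data known, and with any pair left out its smallest possible p is 0.0625.

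In limma's fit of all probe sets, the stress difference was -0.32 ± 0.16 (SE, 95% interval -0.68 to 0.05) for PR5, with an unadjusted p of 0.0792, and 0.25 ± 0.07 (SE, 0.08 to 0.41) for wci, with an unadjusted p of 0.00826. A p as small as that of wci was found in 0.619% of probe sets, and one as small as that of PR5 in 7.01%. The limma adjusted p was 1.00 for both. The share of all probe sets called was 0%, while 2619 (4.28%) had an unadjusted p under 0.05. With the replicate number as a block the interval was -0.54 to -0.09 for PR5 (SE 0.10, unadjusted p = 0.00961 in limma) and 0.09 to 0.40 for wci (SE 0.07, unadjusted p = 0.00599 in limma). The unadjusted p of PR5 was thus under 0.05 with the block and not without it, where 10.1% of all probe sets were under 0.05 with the block. With it the limma adjusted p was 0.357 for PR5 and 0.332 for wci, still not past the threshold, which 0.00817% of probe sets passed with the block. In bulk root tissue, fewer cells of a type and less RNA per cell cannot be told apart.

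The replicate number moved with PR5. Number 2 was above number 1 in 5 of 6 groups, by 0.17 to 0.71, and differed by -0.0056 in stressed Pavon76, where 25.6% of probe sets were higher in number 2 in 5 or 6 groups. PR5 averaged 4.83 ± 0.19 (SD, n = 6) in number 1 and 5.18 ± 0.28 (SD, n = 6) in number 2, a step about as large as the stress difference. The direction under stress was the same within each number, with a mean of -0.29 ± 0.23 (SD, n = 3 pairs) in number 1 and -0.34 ± 0.30 (SD, n = 3 pairs) in number 2. For wci the numbers averaged 6.83 and 6.88. Number 2 lay below number 1 in the 3 well-watered groups and above it in the 3 stressed groups, so its stress difference was 0.13 ± 0.10 (SD, n = 3 pairs) in number 1 and 0.36 ± 0.15 (SD, n = 3 pairs) in number 2. With 3 pairs the exact sign-flip permutation test cannot go below 0.25, and it gave 0.25 for both genes in both numbers.

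Spiked controls differed between the water conditions as well. The 27 probe sets of hybridization controls, bacterial and phage transcripts added in known amounts before hybridization, were all higher on average under water stress, with a median difference of 0.34. By pair, the median of their differences was -0.03 and 0.46 for Pavon76, 0.26 and 0.21 for Pavon-TL, and 0.65 and 0.49 for Null Control. In the first Pavon76 pair, where these controls differed by -0.03, wci was higher by 0.13 and PR5 lower by 0.20 on the log2 scale. In the first Null Control pair, where they differed most, by 0.65, wci was higher by 0.22 and PR5 lower by 0.55. The 36 probe sets of poly-A controls, added to the RNA before labelling, had a median difference of -0.03, with 9 of them higher on average under water stress. By pair, the median of their differences ran from -0.28, in the second Pavon76 pair, to 0.15, in the first Null Control pair. The median of the differences of all probe sets was at most 0.02 in size in any pair. RMA brings the arrays to a like distribution, so this median could not show a shift across an array. The part of the hybridization controls in the wci and PR5 differences was not tested.

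**Figure D2:**
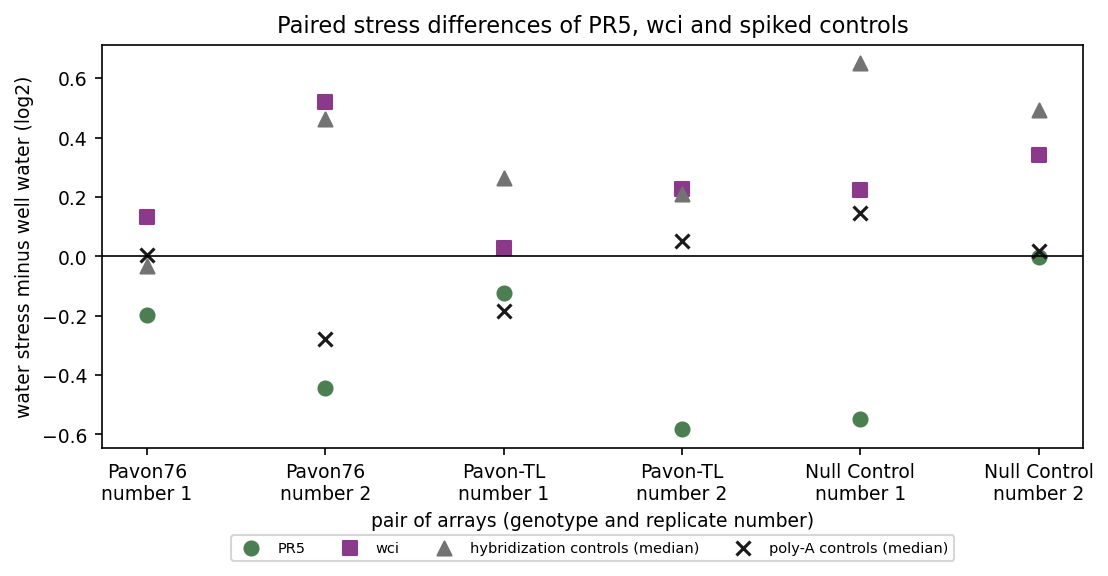
Water stress minus well water (log2) for PR5 and wci, and the median of this difference over the hybridization and over the poly-A controls, in each of the 6 pairs. PR5 lies below 0 and wci above 0 in 6 of 6 pairs, and the hybridization controls lie above 0 in 5 of 6.

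By genotype, the limma stress difference of PR5 was -0.32 ± 0.27 (SE) in Pavon76, -0.35 ± 0.27 (SE) in Pavon-TL and -0.27 ± 0.27 (SE) in Null Control. That of wci was 0.33 ± 0.12 (SE) in Pavon76, 0.13 ± 0.12 (SE) in Pavon-TL and 0.28 ± 0.12 (SE) in Null Control. None passed limma's threshold, at which 0% of probe sets were called in each genotype, against 2.84%, 2.5% and 3.42% with an unadjusted p under 0.05. With the block these shares called were 0%, 0% and 0.00163%. The PR5 difference in Pavon-TL was 0.0048 without the second well-watered array, and that in Null Control was 0.08 without the first stressed array. These values are from fits without the block. Each breaks a pair, so the step between the replicate numbers enters them. The pairs left whole differed by -0.12 in Pavon-TL (number 1) and by -0.0035 in Null Control (number 2). The wci difference in Pavon-TL ran from 0.03 to 0.23 with 1 array left out and did not change sign.

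The difference between genotypes in the stress response was tested as an interaction. The stress difference of wci in Pavon-TL minus the mean of that in Pavon76 and Null Control was -0.18 ± 0.15 (SE, 95% interval -0.52 to 0.17, limma adjusted p = 1.00). Without the second stressed Pavon76 array it was -0.09, and without the first well-watered Pavon-TL array -0.12. For PR5 the same interaction was -0.05 ± 0.34 (SE, -0.82 to 0.71, limma adjusted p = 1.00). Null Control minus Pavon76 gave 0.05 ± 0.39 (SE, -0.84 to 0.93) for PR5 and -0.04 ± 0.18 (SE, -0.45 to 0.36) for wci. A difference in response between genotypes was thus not shown for either gene, and the intervals leave room for interactions larger than the stress differences themselves. Over all probe sets 0% were called in these interactions, and 1.77% and 2.69% had an unadjusted p under 0.05.

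The next comparison asks whether the genotypes differ in the 2 genes, averaged over the water conditions. PR5 averaged 5.08 ± 0.37 (SD, n = 4) in Pavon-TL, with its 4 arrays from 4.78 to 5.62, and 4.97 ± 0.26 (SD, n = 8) in Pavon76 and Null Control together, from 4.52 to 5.24. For wci the values were 6.81 ± 0.09 (SD, n = 4), from 6.68 to 6.91, and 6.88 ± 0.19 (SD, n = 8), from 6.68 to 7.20. The Pavon-TL arrays overlapped the others for both genes, and lay all above or all below them in 0.673% of probe sets. The limma difference was 0.12 ± 0.17 (SE, 95% interval -0.27 to 0.50) for PR5 and -0.07 ± 0.08 (SE, -0.24 to 0.10) for wci, both with a limma adjusted p of 1.00, where 0.199% of probe sets were called, or 0.634% with the block. A two-sided exact permutation test of 4 against 8 arrays gave p = 0.549 for PR5 and 0.511 for wci. Without the second well-watered Pavon-TL array the PR5 difference was -0.06.

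Against Pavon76 alone, Pavon-TL differed by 0.16 ± 0.19 (SE, 95% interval -0.28 to 0.61) in PR5 and by -0.07 ± 0.09 (SE, -0.27 to 0.13) in wci. Against Null Control alone it differed by 0.07 ± 0.19 (SE, -0.38 to 0.51) in PR5 and by -0.08 ± 0.09 (SE, -0.28 to 0.12) in wci. These comparisons share the Pavon-TL arrays. Null Control differed from Pavon76 by 0.10 ± 0.19 (SE, -0.35 to 0.54) in PR5 and by 0.01 ± 0.09 (SE, -0.19 to 0.21) in wci. Neither gene passed limma's threshold in any of them, where 0.168%, 0.152% and 0.0049% of probe sets were called in turn, or 0.499%, 0.575% and 0.0147% with the block. For wci the upper and lower ends of these intervals correspond to ratios between 0.826 and 1.16, and for PR5 between 0.771 and 1.52.

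**Figure D3:**
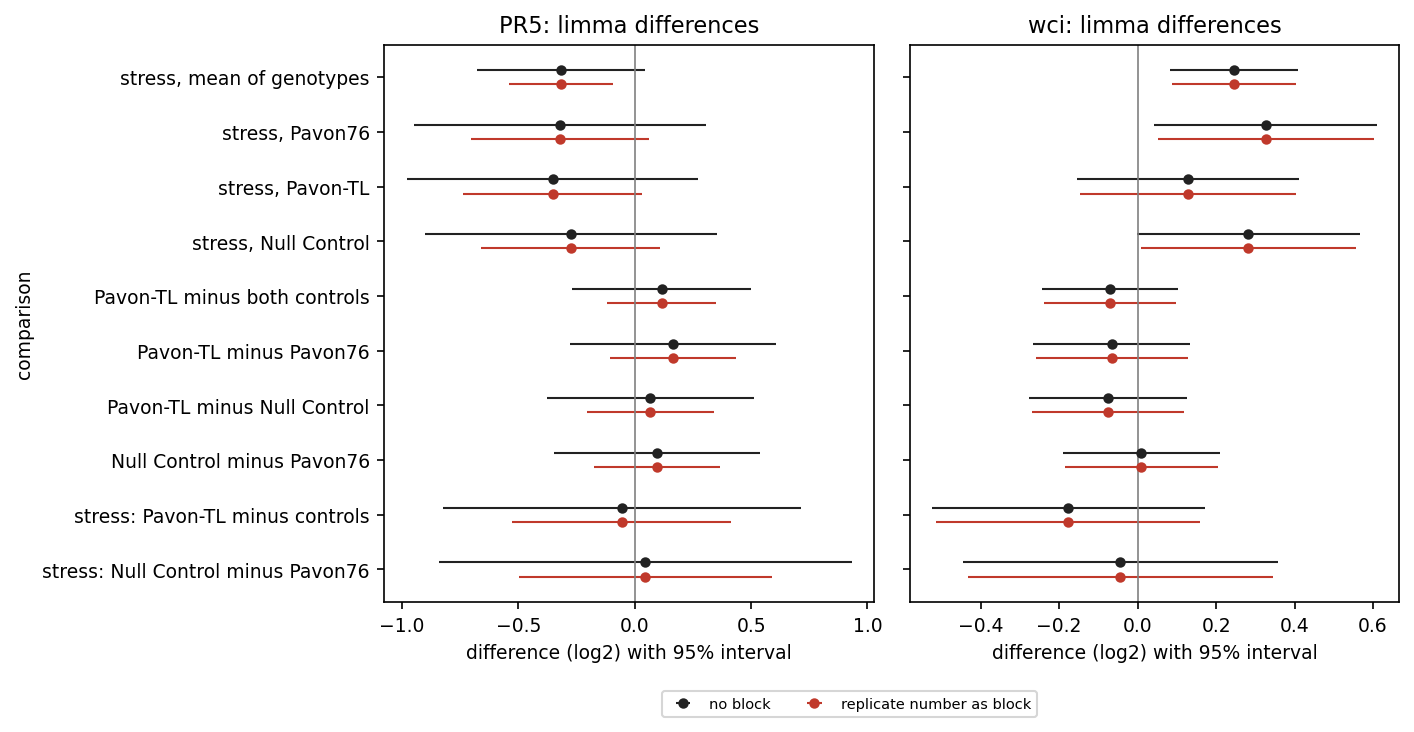
Differences (log2) of PR5 (left) and wci (right) in the 10 comparisons, as points with 95% intervals from limma, without a block (black) and with the replicate number as a block (red). The intervals of the wci stress difference averaged over genotypes lie above 0 (0.08 to 0.41 without the block), that of PR5 includes 0 without the block (-0.68 to 0.05) and lies below 0 with it (-0.54 to -0.09), and those of all genotype comparisons and interactions include 0. Without the block, the wci interval for stress in Pavon76 lies above 0, and those in Pavon-TL and Null Control include 0. None of the values passed the threshold after adjustment over all probe sets.

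PR5 and wci were set against each other over the 12 arrays. Pearson's r was -0.52 (permutation p = 0.0873) and Spearman's rho -0.64 (permutation p = 0.0298). Within replicate number 1 the 6 arrays gave r = -0.95 (exact permutation p = 0.00694) and rho = -0.94 (exact p = 0.0167), and within number 2 r = -0.75 (exact permutation p = 0.0847) and rho = -0.71 (exact p = 0.136). Within the 6 well-watered arrays r was -0.79 (exact permutation p = 0.0556) and rho -0.89 (exact p = 0.0333), and within the 6 stressed ones r was 0.07 (exact permutation p = 0.878) and rho -0.14 (exact p = 0.803). Adjusted by Benjamini-Hochberg over these 5 relations, the p for r was 0.0347 within number 1 and 0.109 or more elsewhere, and that for rho 0.0556 or more throughout.

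Centred within each number the relation was r = -0.77 (permutation p = 0.00309). Permutations over the 12 arrays and within each number shuffled stressed and well-watered arrays freely. PR5 was lower and wci higher under stress in all 6 pairs, so these p-values do not separate the relation from the water difference. Centred within each of the 6 groups, r was -0.10 (permutation p = 0.754). With 2 arrays per group, this centring leaves only the step between numbers 1 and 2. Its p treats the 2 mirrored values of a group as independent. Without the 2 arrays farthest from the median of PR5, the second well-watered Pavon-TL array and the first stressed Null Control array, r was -0.35 (permutation p = 0.335) and rho -0.49 (permutation p = 0.154). Leaving out these arrays also narrows the range of PR5.

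**Figure D4:**
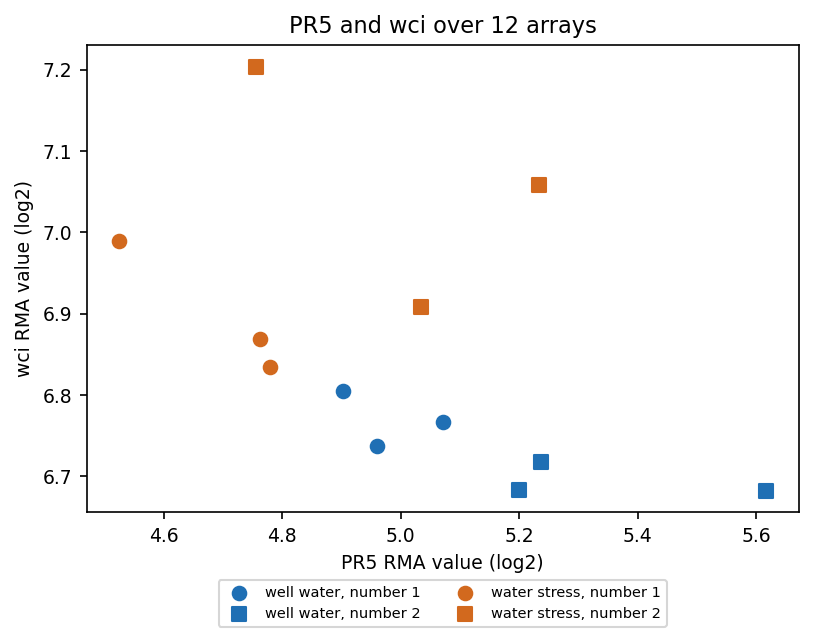
RMA values (log2) of PR5 (horizontal) and wci (vertical) on the 12 arrays, with well water in blue and water stress in orange, circles for replicate number 1 and squares for number 2. The 6 stressed arrays lie above the 6 well-watered ones in wci (6.83 to 7.20 against 6.68 to 6.80), and number 2 lies mostly to the right of number 1 in PR5.

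Other defence genes gave no call in limma under water stress. Lists for defence functions matched 22 further probe sets of 14 genes, of which 8 had positive and 14 negative stress differences, with 0 called in either direction and a median of -0.05, against -0.0012 over all probe sets. An unadjusted limma p under 0.05 was found for 3 of the 22, as against 4.28% of all probe sets. The lists were matched on symbols and synonyms, and 102 of the 771 annotated genes have a name other than a LOC number. Among these named genes PR5 was the only one matched to its family. None matched the list of defence signalling (salicylate and jasmonate regulators, WRKY factors and resistance genes). Genes with only a LOC number could not be matched. With the replicate number as a block 0 of the 22 were called, and 3 had an unadjusted limma p under 0.05, against 10.1% of all probe sets.

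Of the antimicrobial peptides, 3 probe sets had positive and 4 negative differences, all with low signals of at most 6.14. The lipid transfer protein LTP3 (LOC543095), a small cysteine-rich protein, differed by 0.02 ± 0.06 (SE) and was the brightest of them. The thionins, membrane-damaging peptides best known from cereal grains, differed by -0.21 ± 0.15 (SE) for THI1.1, -0.07 ± 0.08 (SE) for THI1.3 (LOC543413) and 0.0035 ± 0.07 (SE) for THI1.2, each at its probe set with the highest signal. The other probe set of THI1.3 was lower under stress in 6 of 6 pairs, with means of 3.45 ± 0.13 (SD, n = 6) in well-watered and 3.19 ± 0.09 (SD, n = 6) in stressed arrays. Its difference of -0.26 ± 0.06 (SE) had an unadjusted limma p of 0.00207 and an adjusted p of 1.00, and its level lay below the first quartile of all values (4.34).

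The protease and amylase inhibitors, which can act against the digestive enzymes of insects and microbes, had 10 probe sets of 7 genes, 3 with positive and 7 with negative differences. The serpin Serpin-Z2B (LOC543382) was higher under stress in 6 of 6 pairs, like wci, with 3.52 ± 0.08 (SD, n = 6) and 3.71 ± 0.09 (SD, n = 6), a difference of 0.19 ± 0.06 (SE, limma adjusted p = 1.00) at a low signal. The amylase inhibitor MAI (LOC542981), the brightest of the list, differed by -0.10 ± 0.09 (SE). The amylase and trypsin inhibitor ATI of LOC543286 differed by 0.02 ± 0.09 (SE) at its brightest probe set and by -0.0059 ± 0.07 (SE) at another. At its dimmest it differed by -0.32 ± 0.08 (SE), lower in 5 of 6 pairs, with an unadjusted limma p of 0.00412. With the replicate number as a block that limma p was 0.00113, and neither fit passed limma's threshold. This probe set had an SD of 0.32 (n = 6) in stressed and 0.11 (n = 6) in well-watered arrays. The 3 probe sets of ATI thus did not move alike. The serpin WSZ1b (LOC100037548) differed by -0.04 ± 0.07 (SE).

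Among the remaining lists, the methyltransferase COMT1 (LOC543449), which makes lignin precursors, had a high signal of 13.34 and a difference of -0.16 ± 0.29 (SE). The peroxidase PER1 (LOC543108) differed by -0.07 ± 0.09 (SE) at its brighter probe set and by 0.11 at the other. Glc1 (LOC543469), matched by its symbol to the list of glucanases and other pathogenesis-related proteins, differed by 0.13 ± 0.22 (SE) at the brighter of its probe sets and by -0.11 at the other. Between Pavon-TL and the other genotypes the 22 probe sets had a median difference of 0.04, 12 of them positive and 10 negative, and 0 were called in limma, where the median of all probe sets was 0.00053. An unadjusted limma p under 0.05 was found for 1 of the 22 in this comparison, against 3.96% of all probe sets.

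**Figure D5:**
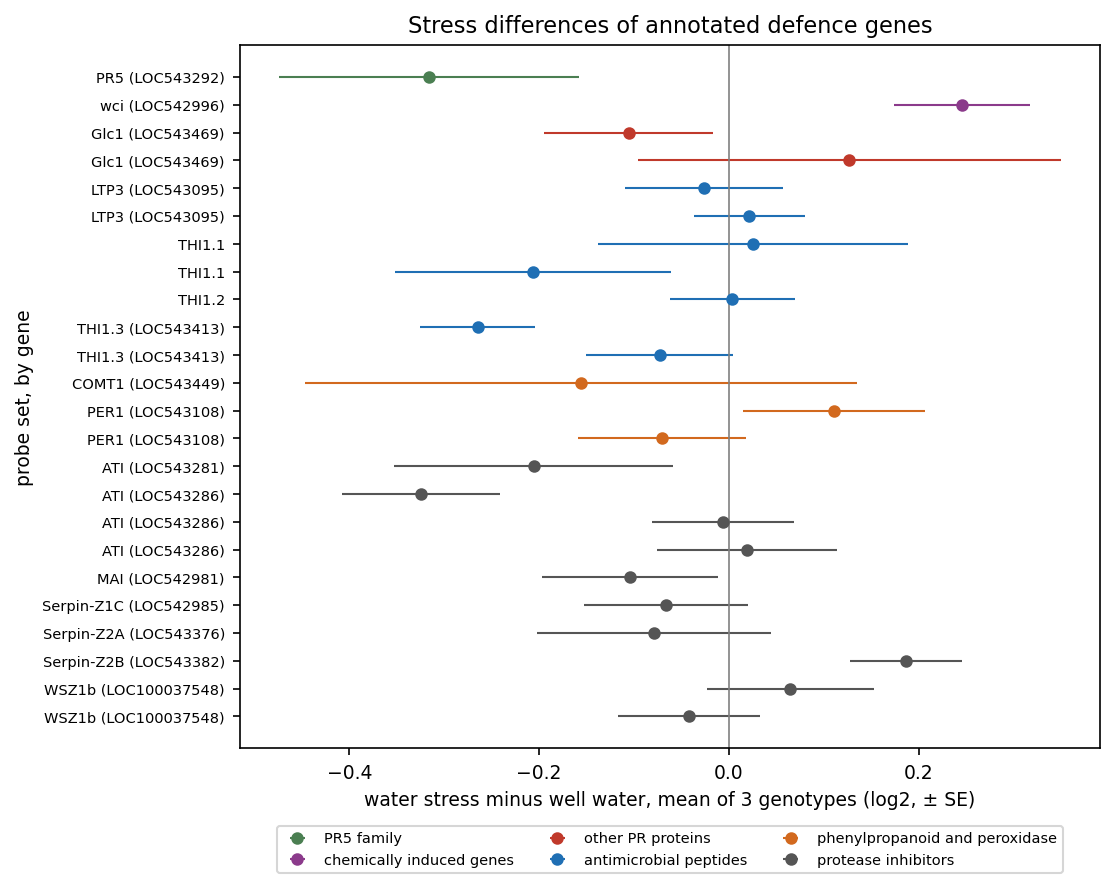
Stress differences (log2, mean of 3 genotypes) of PR5, wci and the 22 other annotated defence probe sets, with standard errors from limma as bars and colours for the lists. Differences run from -0.32 to 0.25, with wci the highest of them, and none passed the threshold over all probe sets.

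The annotated genes most like each member were named by Pearson's r over the 12 arrays after centring within the replicate number, among 1272 other annotated probe sets. All of these arrays are shared, and the values are descriptions. The centring leaves the water difference in the values, so r does not separate likeness from a shared water difference. The 5 genes highest for PR5 all had negative stress differences, and the 5 highest for wci all had positive ones. For PR5 the 5 highest were LOC543025 (r = 0.78), LOC778408 (0.76), CAT1 (0.75), LOC543111 (0.74) and LOC100037550 (0.74). CAT1 encodes catalase, which breaks down hydrogen peroxide, and the annotation does not name the others. On the values as deposited, r with PR5 was 0.84 for LOC543025, 0.81 for LOC100037550 and 0.56 for CAT1, but 0.43 for LOC778408 and 0.20 for LOC543111. Other probe sets of the same genes were less alike, with r down to 0.35 for CAT1, 0.16 for LOC543025 and -0.08 for LOC543111 and LOC100037550.

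For wci the 5 highest were LOC542814 (r = 0.89), LOC732707 (0.88), LOC543056 (0.88), LOC100037524 (0.88) and LOC543450 (0.87). Of these, LOC543056 was the one with a second probe set also above 0.7, at r = 0.72, while the 4 probe sets of LOC732707 ran from -0.55 to 0.88. On the values as deposited, r with wci was 0.88 for LOC732707, 0.80 for LOC543056, 0.87 for LOC100037524 and 0.60 for LOC543450, but 0.43 for LOC542814. The lowest r with wci were those of LOC543111 (-0.89), the thionin gene THI1.3 (-0.83, the probe set lower in 6 of 6 pairs above) and LOC542799 (-0.81), which were -0.84, -0.81 and -0.19 on the values as deposited. The lowest with PR5 were LOC100037659 (-0.85), LOC542814 (-0.84) and LOC543239 (-0.82). On the values as deposited, r with PR5 was -0.67 for LOC100037659 and -0.89 for LOC542814, but turned to 0.40 for LOC543239. LOC542814 and LOC543111 thus appeared at opposite ends for the 2 members, each at 1 probe set. PR5 and wci themselves had r = -0.77 with each other on these centred values. The 3 probe sets of LOC543111 ran from -0.08 to 0.74 with PR5 and from -0.89 to -0.06 with wci. The 2 of LOC542814 ran from -0.84 to -0.47 and from 0.36 to 0.89. At the probe sets named, stress differences were 0.16 ± 0.11 (SE) for LOC542814 and -0.10 ± 0.07 (SE) for LOC543111. Neither passed limma (adjusted p = 1.00).

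The tissue label was set against marker genes. The root uptake genes DMAS1, which makes phytosiderophores for iron uptake, and ALMT1, a malate transporter of root tips, had signals from 8.19 to 10.69 over their 4 probe sets. The leaf photosynthesis list had a median signal of 3.85 over 31 probe sets and the grain list 4.15 over 13, both below the median of all values. Single leaf probe sets reached 11.94. The 4 root probe sets had stress differences from -0.41 to 0.34, the leaf list a median of 0.02 and the grain list 0.05, with 0 called by limma. Of the 31 leaf probe sets, most of them of 1 gene (rbcl), 5 were higher under stress in 6 of 6 pairs and 3 had an unadjusted limma p under 0.05, and of the 13 grain probe sets it was 1 and 1. These counts stand beside 2.83% and 4.28% of all probe sets, and their part in the PR5 and wci differences was not tested.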

How the data were processed

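Per the labels' protocols, Trizol was used to extract root RNA, and biotin was incorporated by in vitro transcription for Affymetrix arrays. The deposited values are log2 RMA values, per the submitters' processing notes. The RMA version is not given in the sources used here. They ran from 2.32 to 14.8, with array medians from 5.89 to 5.93. Of 61290 probe sets, 111 Affymetrix controls were left out of the tests. Probe sets were named through the platform annotation of 2007 and the synonyms of RefSeq (assembly IWGSC CS RefSeq v2.1). It annotates 1273 probe sets of 771 genes, of which 770 matched. The number of arrays limits the precision.

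In limma 3.58.1 (R 4.3.3), 6 group means were estimated with empirical Bayes moderation, and p-values were adjusted by Benjamini-Hochberg over all 61179 probe sets. The fit was tested on simulated data with independent noise and no step between the replicate numbers. It called 84 of 100 probe sets raised under stress by 1 (log2) and 96 of 100 raised by 2, with 7 false calls. Differences as small as those of PR5 and wci were not simulated. Genotype comparisons average over water conditions. Exact and permutation tests (100000 resamples for the relation over 12 arrays) were two-sided. The replicate numbers pair the arrays, a relation seen in the data and not given in the labels, since deviations from group means correlated between 0.606 and 0.795 in 15 of 15 pairs of groups. A block for the replicate number was therefore tried, beside the alternatives given at the end. The genes, lists and tests were chosen with earlier results of these data known. Named were both members, up to 3 genes of each defence list by signal (1 probe set per gene), and the 5 most and 3 least alike annotated genes. A further probe set of a named gene, and a gene with the same sign in 6 of 6 pairs, were named after their values were seen.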

Additional observations from a re-analysis of the deposited data

Results flagged for a closer look

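The hybridization controls, which take no part in the comparisons, had a median difference of 0.34 between water stress and well water, with 27 of 27 probe sets higher under stress. By pair of arrays the median of their differences ran from -0.03 to 0.65, with a mean of 0.34 ± 0.24 (SD, n = 6 pairs). The two-sided exact sign-flip permutation p was 0.0625, where the smallest possible p is 0.0312.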

How the results depend on the processing

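The limma comparisons of PR5 and wci, 20 in all, were recomputed with the replicate number as a block, with each array left out with and without the block, with trended and robust moderation, with only the groups compared, with each array centred on its median, with array weights and without dim probe sets. The last gives no value for PR5, whose mean signal lies below the median of all values, and where a comparison uses all 6 groups, fitting only those groups is the same fit. A group with 1 array left is assumed to vary like the others. Of 584 alternative values 0 were called, with a lowest limma adjusted p of 0.299, and 38 changed sign, all with an array left out.

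With arrays left out, the stress difference averaged over genotypes ran from -0.44 to -0.20 for PR5 and from 0.19 to 0.30 for wci, and in Pavon76 from -0.53 to -0.11 and from 0.15 to 0.50. It ran from -0.71 to 0.0048 for PR5 in Pavon-TL, from -0.63 to 0.079 for PR5 in Null Control, and from 0.23 to 0.34 for wci in Null Control. Pavon-TL minus the other genotypes ran from -0.063 to 0.29 for PR5 (from -0.062 to 0.22 as a plain difference of array means) and from -0.12 to -0.02 for wci. Pavon-TL minus Pavon76 ran from -0.015 to 0.34 for PR5 and from -0.15 to 0.022 for wci. Pavon-TL minus Null Control ran from -0.11 to 0.25 for PR5, and Null Control minus Pavon76 from -0.080 to 0.27 for PR5 and from -0.078 to 0.10 for wci. The interaction of Pavon-TL ran from -0.41 to 0.30 for PR5 and from -0.28 to -0.08 for wci, and that of Null Control from -0.31 to 0.40 for PR5 and from -0.22 to 0.13 for wci. The mean of the pairs with 1 left out ran from -0.38 to -0.26 for PR5 and from 0.19 to 0.29 for wci, at the smallest p possible with 5 pairs. The relation of PR5 and wci was r = -0.77 with the replicate block and ran from -0.69 to -0.42 with an array left out, with a permutation p of 0.0226 without the second stressed Null Control array.

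The replicate block called 5 probe sets for stress over genotypes, 1 for stress in Null Control, 388 for Pavon-TL against the other genotypes, 305 against Pavon76, 352 against Null Control and 9 for Null Control against Pavon76, in place of 0, 0, 122, 103, 93 and 3. It changed no call of PR5 or wci. With arrays left out, with and without the block, these counts ran from 0 to 35, 0 to 1, 85 to 594, 75 to 342, 70 to 612 and 3 to 18, and those for stress in Pavon76 and in Pavon-TL from 0 to 2. For the interaction of Pavon-TL they ran from 0 to 1. The cause of these shifts was not tested.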
